A study of Caenorhabditis elegans with 2 samples.

Results

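The *C. elegans* zinc finger protein LSY-2 is known from the ASE taste neurons. In the left one it acts upstream of the microRNA lsy-6. Chromatin immunoprecipitation followed by sequencing recovers the DNA that lies with a protein, and a peak caller turns the reads into candidate regions, each with a summit and a signal value. A filter on reproducibility between replicates, the irreproducible discovery rate, then keeps the strongest candidates and sets the rest aside. The regions described here are the candidates set aside just below that limit.

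The libraries came from whole larvae of mixed sex at the L4 stage, strain OP240, which carries unc-119(ed3) on chromosome III and the integrated array wgIs240 with eGFP-tagged lsy-2. The antibody label reads lsy-2. There was 1 group of 2 biological replicates, and no second stage, genotype or untagged strain was analysed here. The tag rests on 1 integrated line, and in whole larvae signal from any cell type is summed.

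The pooled candidate list on the ce11 build held 22035 regions. Its strongest lines are the list called optimal by the authors. The ranks from there down to 5000 held 3437 candidates, of which 3291 overlapped a candidate by at least 1 bp in both replicate lists. These 3291 regions are called members below. They were chosen by pooled signal and by presence in both replicates, so their signal, q value, ranks and replicate matches are descriptions without a test. Location and sequence played no part in the choice.

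A member lay within 500 bp of a start at 6.66% of protein-coding genes. An optimal peak lay at a start of 7.81% of these genes, beside 4.79% of all protein-coding genes. Among 36 gene lists, those picked out here after their values were seen had larger shares, at 35.0% for nuclear pore and nuclear transport genes and 30.3% for proteasome genes. Fewer members than optimal peaks lay near protein-coding starts, at 36.9% against 49.97%, and more lay in coding exons, at 7.41% against 1.02%. The short sequence elements at optimal summits were also found at members, in smaller shares. For the bins of ranks on either side of the limit, the intervals of the location shares overlapped.

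Sequences of 50 bp to either side of the summit show what the members hold. They are from the plus strand of the WBcel235 assembly in the RefSeq copy, the same sequence as ce11. Capitals mark 3 elements. One is GAGAGA, which reads TCTCTC on the other strand. Another is CTGCGT, which reads ACGCAG there. The last is CGTCTC, which reads GAGACG there. CTGCGT and CGTCTC can share 3 bases in the joined run CTGCGTCTC, whose reverse complement is GAGACGCAG. The first 5 shown belong to the strongest members at protein-coding starts. Of these, only the window at mdt-1.2 holds an element.

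Y72A10A.1, chrX:6132883-6132983: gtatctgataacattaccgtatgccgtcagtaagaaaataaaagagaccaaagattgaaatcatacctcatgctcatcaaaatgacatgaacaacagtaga
mdt-1.2, chrX:17151282-17151382: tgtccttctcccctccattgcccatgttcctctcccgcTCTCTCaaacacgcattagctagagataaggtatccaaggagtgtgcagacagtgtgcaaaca
asg-2, chrX:6841009-6841109: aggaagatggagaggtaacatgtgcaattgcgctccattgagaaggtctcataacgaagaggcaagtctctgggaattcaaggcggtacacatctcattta
T26A8.4, chrIV:8431732-8431832: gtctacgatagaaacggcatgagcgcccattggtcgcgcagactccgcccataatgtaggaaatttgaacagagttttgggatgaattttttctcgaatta
C15H11.11, chrV:14415338-14415438: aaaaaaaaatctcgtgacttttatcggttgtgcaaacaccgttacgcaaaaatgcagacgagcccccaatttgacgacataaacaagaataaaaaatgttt

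The next 4 were picked after the sequences were seen. They are the strongest members at starts, with no untranslated region in the window, that hold the joined run. The windows at lec-1 and tag-281 hold TCTCTC as well.

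lec-1, chrII:13195385-13195485: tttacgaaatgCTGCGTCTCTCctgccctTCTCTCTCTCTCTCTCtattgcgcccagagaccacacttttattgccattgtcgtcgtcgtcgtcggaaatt
tag-281, chrII:12459595-12459695: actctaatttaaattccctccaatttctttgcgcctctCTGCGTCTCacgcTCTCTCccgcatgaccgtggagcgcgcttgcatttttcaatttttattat
sel-2, chrIII:4612735-4612835: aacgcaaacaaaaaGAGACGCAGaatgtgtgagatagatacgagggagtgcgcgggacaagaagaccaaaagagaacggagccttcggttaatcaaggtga
znf-782, chrIV:1067594-1067694: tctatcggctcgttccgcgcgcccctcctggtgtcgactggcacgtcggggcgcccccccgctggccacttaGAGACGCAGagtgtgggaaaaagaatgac

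The last shows a member beside an optimal peak. Its summit is 250 bp from the optimal summit at mep-1, which encodes a zinc finger protein, and it holds ACGCAG alone.

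mep-1, chrIV:11524144-11524244: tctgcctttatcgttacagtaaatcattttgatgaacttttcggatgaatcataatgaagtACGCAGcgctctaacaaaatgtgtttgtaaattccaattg

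By plain overlap, nearly every candidate just below the limit was present in both replicates. The share was 95.8% (95% exact interval 95.02 to 96.4) of the 3437, beside all but 3 of the optimal peaks and 56.5% of all pooled candidates. It was 99.8% down to rank 2000, 97.7% at 2001 to 3000, 95.2% at 3001 to 4000 and 92.6% at 4001 to 5000. Further down it fell to 73.0% at ranks 5001 to 10000 and 23.2% at the last ranks. Of the 146 candidates that were not members, 65 lay in the replicate 1 list only and 81 in the replicate 2 list only. None was absent from both.

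Overlap alone is a loose criterion here, because the replicate lists held 25003 and 24002 regions that covered 8.90% and 9.03% of the genome. With a match allowed only among the 5000 strongest candidates of each replicate, 1320 of the 3437 remained, or 38.4%. That share went from 86.3% down to rank 2000 through 57.2% and 25.3% to 11.8% at ranks 4001 to 5000. With replicate summits required within 100 bp of the pooled summit, 2550 members remained. When each replicate candidate could serve only 1 pooled region, a rule added after the data were seen, 3002 remained.

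**Figure D1:**
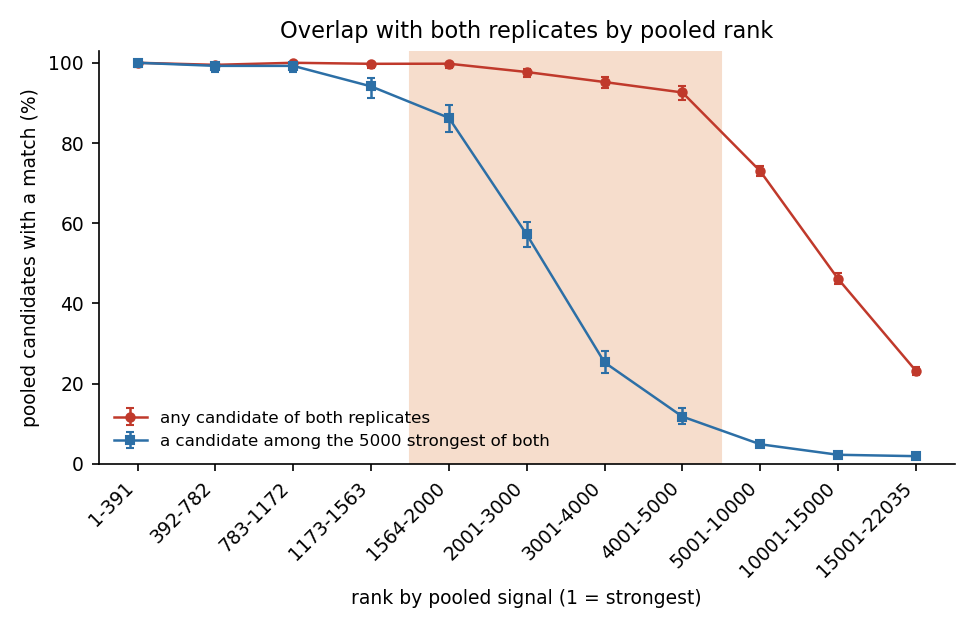
Share of pooled candidates (%) with a match in both replicates, by rank of pooled signal, for any candidate (circles) and for the 5000 strongest of each replicate (squares); bars are 95% exact intervals and the shading runs from the end of the optimal list to rank 5000. Within the shaded ranks the circles stay between 92.6% and 99.8% and the squares go from 86.3% to 11.8%.

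Pooled signal, on the authors' own scale, ran from 60.2 at the first member to 33.6 at the last, with a median of 41.4 (quartiles 36.8 and 47.7). The optimal median was 89.8. The last optimal peak, upstream of the enolase gene enol-1, had a signal of 60.26, and the first member, inside Y72A10A.1, had 60.23. At the lower limit the last member, upstream of Y48G8AR.8, had 33.62 and the next candidate, upstream of cal-7, had 33.61. The median -log10 q of members was 1.53, and it exceeded 1 for 2666 of them (81.0%). In both replicate lists at once it exceeded 1 for 944 members (28.7%) and for 1497 of the 1560 matched optimal peaks (95.96%).

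Members mostly ranked beyond the length of the optimal list in the replicates, whose lists held 25003 and 24002 candidates. The median rank was 3987 in replicate 1 and 3900 in replicate 2, and the median of the worse of the 2 ranks was 6482. A rank that would fall within the length of the optimal list was held in both replicates by 20 members. It was held in exactly 1 by 457 (13.9%) and in neither by 2814 (85.5%). For the optimal list the counts were 1061, 468 and 31. The better rank was in replicate 1 for 48.9% of members. Across members the signals of the replicates had a Spearman correlation of -0.19, against 0.64 across optimal peaks. Members were chosen from a narrow band of pooled signal, which both replicates make up, so this value describes the choice and was not tested.

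Both replicate summits lay within 100 bp of the pooled summit for 77.5% of members and 93.8% of matched optimal peaks. Within 50 bp the shares were 52.02% and 78.8%. These distances come from the lists that the choice used, and no test was made.

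**Figure D2:**
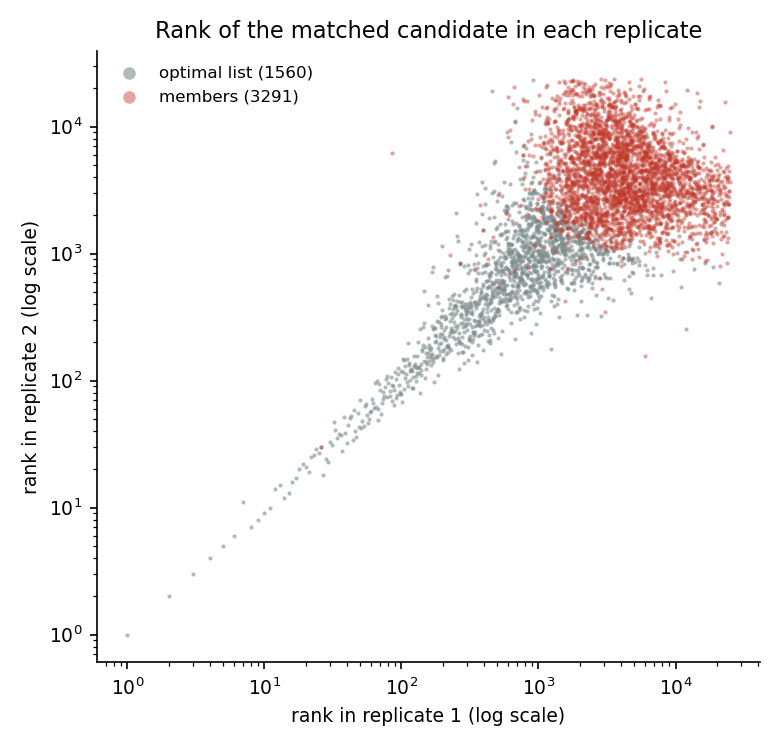
Rank of the matched candidate in replicate 1 (x axis, log scale) against replicate 2 (y axis, log scale); each point is 1 pooled region, grey for 1560 optimal peaks and red for 3291 members. Optimal peaks follow the diagonal, while members fill a block whose median ranks are 3987 and 3900.

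The members that ranked highest in both replicates lay next to optimal peaks. For the 10 best by their worse rank, the summit was 200 to 250 bp from an optimal summit, and a replicate candidate was shared with that peak in at least 1 replicate. The first was in unc-16, which encodes a kinesin cargo adaptor, with a pooled signal of only 35.9 and rank 4352. Its matched candidates had ranks 26 and 30 and signals of 381 in replicate 1 and 452 in replicate 2. Next came the 14-3-3 gene ftt-2, with a pooled signal of 53.6 and ranks 506 and 548, and then mep-1, with 56.4 and ranks 661 and 730.

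The other 7 of these 10 were nearest to kin-14, the peroxisomal transporter gene pmp-2, the DAF-12 corepressor gene din-1, the cytochrome c gene cyc-2.1, hlh-11, mai-1 and the stomatin-like gene unc-1. Of the 20 members that ranked so high in both replicates, 15 shared a replicate candidate with an optimal peak. The other 5 were picked after their values were seen. They lay in an intron of the nuclear hormone receptor gene nhr-19 (ranks 1488 and 1519), 2100 bp downstream of the start of fecl-1 (1334 and 1550), near pck-2 (1454 and 1447), and as a neighbouring pair near F48D6.4. That pair rested on the same replicate candidates, at ranks 1241 and 1353. In all, 52 members shared a candidate with an optimal peak in at least 1 replicate and 257 (7.81%) had an optimal summit within 1000 bp.

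Among the 25 genes with the strongest members at a start, replicate ranks often differed widely. At mdt-1.2 (WBGene00007011, chromosome X, 17151522 to 17154647), which encodes a Mediator subunit, the summit was at -190 bp from the start, that is upstream, with a pooled signal of 60.2. The replicate signals were 22.8 and 37.2, with ranks 2891 and 1311. At asg-2 (WBGene00000210, chromosome X, 6841258 to 6842121), which encodes an ATP synthase subunit, the ranks were 1164 and 7638. At T26A8.4 they were 652 and 15136, and this gene has an optimal peak at a start too. For hst-2, a heparan sulfotransferase gene, they were 2363 and 1694, and the replicate summits coincided with the pooled one.

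Closer agreement was seen at C39F7.5, with ranks 1838 and 1798, at the ribosomal protein gene rpl-25.2, with 1614 and 1392, and at the heme transporter gene hrg-1, with 1667 and 2174. The widest gaps besides T26A8.4 were at C24H12.4 (11651 and 1035), pck-2, a phosphoenolpyruvate carboxykinase gene (625 and 9385), and zfp-1, which encodes a PHD finger protein (600 and 8224). The galectin gene lec-1 (2984 and 1523), the eIF4E gene ife-2 (1550 and 2442), the Mediator kinase gene cdk-8 (2454 and 1408), the nuclear export gene nxt-1 (1253 and 2190) and the proteasome gene rpn-12 (2802 and 1343) lay between. The others of the 25 were Y72A10A.1, C15H11.11, nkb-1, F21D12.3, Y69A2AR.1, alh-8, uev-1, pde-2, K02C4.2 and C14A11.9. Pooled signals of all 25 were between 59.0 and 60.2.

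Location differed from the optimal list. Each share was compared by Fisher's exact test, two-sided, with p-values adjusted by the Benjamini-Hochberg method across 21 comparisons. Regions are not replicates of a condition, so these p-values cover the counting of regions only. A summit within 500 bp of an annotated protein-coding transcript start was found for 1214 members (36.9%, interval 35.2 to 38.6) and for 781 optimal peaks (49.97%, 47.5 to 52.5), with an odds ratio of 0.585 and adjusted p of 3.26e-17. Coding exons away from starts held 244 members (7.41%) and 16 optimal peaks (1.02%), with an odds ratio of 7.74 and adjusted p of 2.41e-24.

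Introns held 21.4% of members against 13.8% (adjusted p 3.94e-10), and intergenic sequence 24.6% against 28.3% (adjusted p 0.0206). With members limited to a run of ranks as long as the optimal list, or to the 5000 strongest of each replicate, the intergenic difference no longer passed, at adjusted p 0.174 and 0.443. For noncoding genes and pseudogenes (3.46% against 4.29%, adjusted p 0.321), chromosome X (18.4% against 17.3%, 0.533) and the middle 50% of autosomes (67.3% against 63.9%, 0.0811) no difference passed the threshold of 0.05. The noncoding class here took only summits away from starts, exons and introns of protein-coding genes, and left out piRNA genes. Shares of all summits near noncoding genes are given below. With the 5000 strongest of each replicate, the difference for autosome middles did pass, at 68.7% against 63.9% (adjusted p 0.0229).

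Shares shifted within the optimal list as well as below it, in unequal amounts. Summits near starts made up 62.1% (interval 57.1 to 66.98) of the 391 strongest optimal peaks, 47.3% (42.3 to 52.4) of the next 391, 46.7% of the 390 after those and 43.7% of the 391 weakest. The share was 42.8% of candidates from there to rank 2000, 38.2% at 2001 to 3000, 35.8% at 3001 to 4000 and 33.1% at 4001 to 5000. Beyond rank 15000 it was 27.2%. Coding exons went the other way, from 0.256% of the 391 strongest to 2.30% of the 391 weakest optimal peaks and 2.29% (1.10 to 4.17) down to rank 2000. They then held 6.80% (5.32 to 8.54) at 2001 to 3000, 7.10% at 3001 to 4000 and 10.8% at 4001 to 5000. For starts, the intervals of neighbouring bins did not overlap between the 2 strongest bins of the optimal list. For coding exons they did not overlap across rank 2000, nor across ranks 4000, 5000 and 10000. Coding exons held 14.5% (13.5 to 15.5) at 5001 to 10000 and 18.2% (17.1 to 19.3) at 10001 to 15000. The bins differ in size, and with it the width of their intervals.

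**Figure D3:**
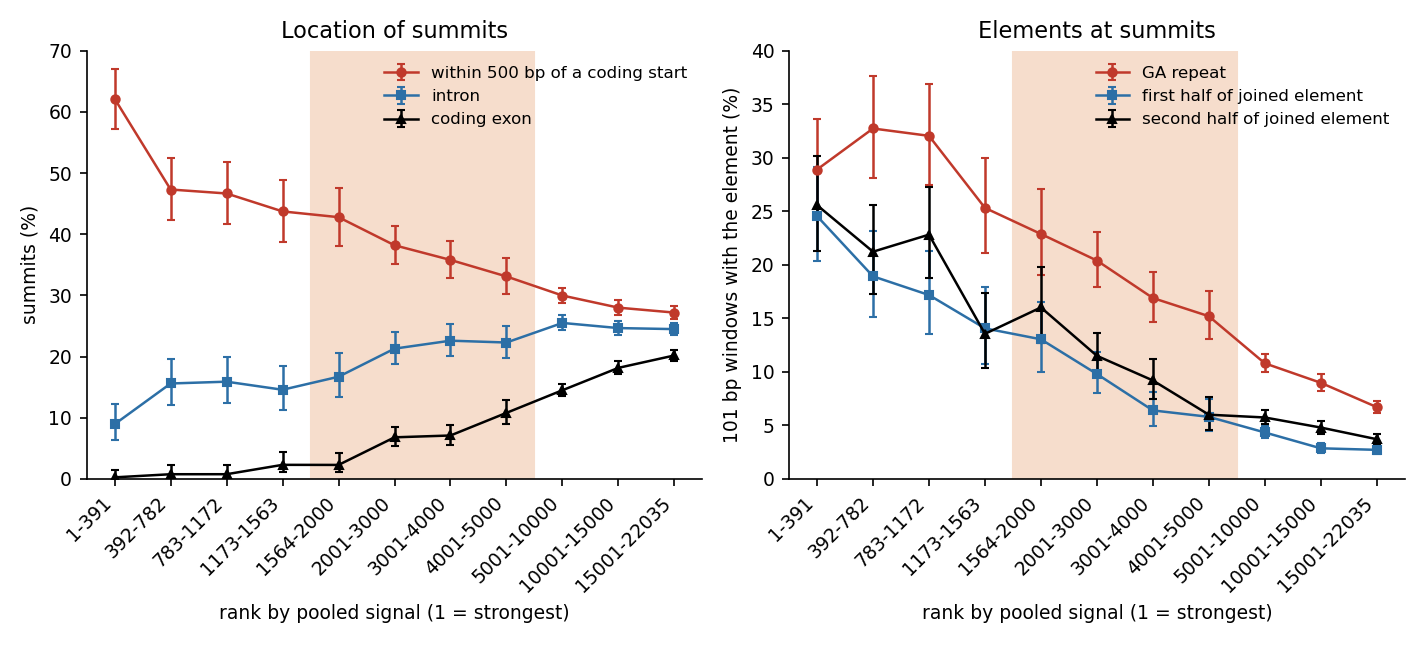
Left, share of summits (%) near protein-coding starts, in introns and in coding exons by rank of pooled signal; right, share of summit windows (%) with the GA repeat GAGAGA and with CTGCGT and CGTCTC, the first and second element of the joined run. Bars are 95% exact intervals and shading runs from the end of the optimal list to rank 5000; for every curve the intervals of the bins on either side of that end overlap.

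Members near starts also sat differently around them. The summit was upstream for 884 of the 1214 (72.8%, interval 70.2 to 75.3) and for 695 of the 781 optimal peaks (88.99%, 86.6 to 91.1). The median position was -114.5 bp, upstream of the start, for members (quartiles -243 and 11.8 bp) and -178 bp for optimal peaks (-277 and -76 bp). The fullest 50 bp bin of optimal peaks was the one from -200 bp, with 16.1% of them. Members had no clear peak, with 9.14% to 10.4% in each bin from -250 bp to the start. This comparison was not tested.

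**Figure D4:**
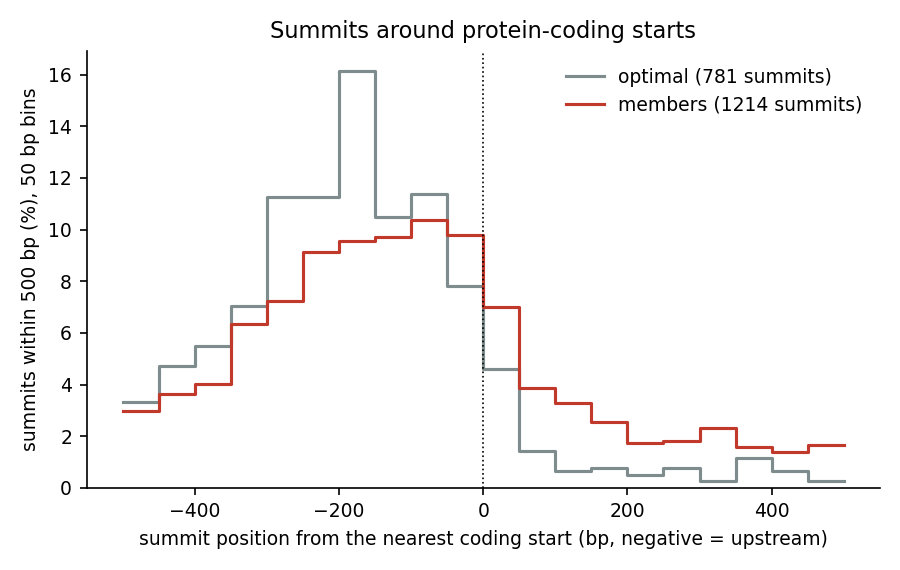
Position of the summit from the nearest protein-coding start (bp, negative upstream) for 1214 members and 781 optimal peaks, as the share (%) of those within 500 bp in each 50 bp bin. Members spread evenly over the bins from -250 bp to the start, and a larger share of them lies downstream of it.

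The elements shown above were less frequent at members than at optimal summits. GAGAGA was found in 18.5% of member windows and 29.8% of optimal windows (odds ratio 0.536, adjusted p 2.48e-17). For CTGCGT the shares were 8.11% and 18.7%, with an odds ratio of 0.384 (adjusted p 2.41e-24). The element CGTCTC was in 9.72% of member windows and 20.8% of optimal ones, with an odds ratio of 0.410 (adjusted p 4.64e-24). At least 1 of the 3 was present in 26.5% of members and 46.96% of optimal peaks.

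Background windows held them less often than members did. Over all genome tiles of the same length the shares were 5.18% for GAGAGA, 1.91% for CTGCGT and 2.72% for CGTCTC. In windows 200 to 100 bp upstream of protein-coding starts they were 8.42%, 3.10% and 3.75%. In windows 500 bp to either side of the members' own summits they were 5.86%, 1.91% and 2.87%. Members at starts and elsewhere held at least 1 element in near-equal shares, 26.4% and 26.6%. Mean GC content of the windows was 41.4% for members and 47.7% for optimal peaks, and its part in the element shares was not tested.

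The joined run CTGCGTCTC was in 136 of the 267 member windows with CTGCGT (50.9%) and of the 320 with CGTCTC (42.5%). At optimal summits these shares were 48.3% and 43.4%, and in genome tiles 20.5% and 14.3%. In windows 200 to 100 bp upstream of protein-coding starts they were 40.3% and 33.4%. For candidates beyond rank 5000 they were 36.3% and 25.4%. Of the 146 member windows with both elements, 136 held them joined. It was in 4.13% of member windows (interval 3.48 to 4.87), 9.02% of optimal windows, 1.17% of candidates beyond rank 5000, 0.390% of genome tiles and 0.380% of the members' flanks. It was examined after the sequences were seen. Of the 4319 genome tiles with both elements, 3876 held it.

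Over all 2080 6-mers, each counted with its reverse complement, GAGAGA had the largest excess at summits over flanks in both sets. In members it was followed by AAGAGA, by its own shifted copy AGAGAG, then by AGAGAA and finally by GAGAAA. Across 6-mers the excess in members and in optimal peaks had a Pearson correlation of 0.91, a description, since 6-mers overlap each other and share base composition. One purine repeat stood out after its values were seen. AAGAAG was in 16.0% of member windows and 9.57% of their flanks, and in 10.2% and 10.1% for optimal peaks.

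Members were next set against the 146 candidates of the same ranks that were missing in a replicate. None of the 11 features passed Fisher's exact test after adjustment over all 21 comparisons, and 1, GAGAGA, had an unadjusted p under 0.05. When a match had to cover 50% of the shorter region, 336 candidates were set apart and 3 features passed. Coding exons held 7.03% of members against 11.6% (adjusted p 0.0128), GAGAGA was in 18.8% against 12.8% (0.0189), and 7.45% against 11.6% lay within 1000 bp of an optimal summit (0.0236). The last is not independent of the matching, since a candidate beside an optimal peak can share that peak's replicate candidate. Summits near starts made up 36.9% of members and 30.1% of the others (interval 22.8 to 38.3, adjusted p 0.239). With the replicate 1 list left out the difference was 18.5 percentage points (adjusted p 0.00507), and without replicate 2 it was -2.97 (adjusted p 0.84). GAGAGA was present in 18.5% and 10.96% (interval of the latter 6.40 to 17.2, adjusted p 0.0546). The small second set leaves wide intervals, and the median pooled signal was 37.2 in it against 41.4 in members.

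A stricter split, by presence among the 5000 strongest of both replicates, uses the replicate ranks that make up pooled signal, so it is given as a description without a test. The 1320 candidates that passed it had GAGAGA in 21.4% of windows against 16.2% of the others, CTGCGT in 10.1% against 6.80% and CGTCTC in 12.95% against 7.84%. They also had higher pooled signal, along which these shares change. At ranks down to 2000, at least 1 element was in 36.6% of 377 passing members (interval 31.7 to 41.7) and 22.03% of 59 others (12.3 to 34.7). The shares were 32.3% of 572 (28.5 to 36.3) and 26.9% of 405 (22.7 to 31.5) at 2001 to 3000. At 3001 to 4000 they were 26.9% of 253 (21.5 to 32.8) and 23.5% of 699 (20.4 to 26.8). At 4001 to 5000 the order turned, with 19.5% of 118 (12.8 to 27.8) and 21.4% of 808 (18.6 to 24.4). Passing members had the larger share in 3 of the 4 bins, and the intervals overlapped in all 4.

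At the gene level, 1331 of the 19973 protein-coding genes (6.66%) had a member within 500 bp of a start, and 957 (4.79%) had an optimal peak there. Of the 19016 genes without an optimal peak, 1227 had a member (6.45%). Both kinds were present at 7.81% of the 1331 genes, and 92.2% had no optimal peak. The gene lists below are described against these shares, without tests. A member at the starts of 2 or more genes counted for each of them, as did 193 of the 1214. With a window of 250 bp the 1331 genes became 888, and 19 of the 36 list counts moved by over 1.5 times. By nearest start alone there were 1144 genes, and 6 list counts moved so.

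Nuclear pore and nuclear transport genes, which build and use the channel between nucleus and cytoplasm, had a member at 14 of 40, or 35.0%. Optimal peaks were at 5 of them, and all 14 genes with a member were among the 35 without an optimal peak. The 14 became 8 with a window of 250 bp and also by nearest start alone. The nucleoporin gene npp-6 had a pooled signal of 58.1, with replicate ranks 1267 and 2641. The importin alpha gene ima-3 had 55.8, with ranks 1596 and 2238. The nucleoporin gene npp-7 had 55.2, but its ranks were 663 and 20407.

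Genes of the transcription machinery, meaning RNA polymerase, TAF and Mediator subunits, had a member at 13 of 63 (20.6%) and an optimal peak at 5. The 13 stayed 13 within 250 bp and became 9 by nearest start alone. The Mediator genes mdt-1.2, cdk-8 and mdt-9 came first, with signals of 60.2, 59.6 and 57.2. Proteasome subunit genes had a member at 10 of 33 (30.3%) and an optimal peak at 8, with 7 having a member within 250 bp and 6 by nearest start alone. The first were rpn-12 of the regulatory particle, with a signal of 59.3, and the core subunit genes pbs-4 and pbs-1, with 55.7 and 51.1.

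Ribosomal protein genes, 59 of 83 of which had an optimal peak, had a member at 14 (16.9%), and 12 of these were among the 24 without one. Within 250 bp the count was 7. With both lists 71 of 83 had a summit at a start. The members included rpl-25.2 (signal 59.1), rps-4 (55.4, with ranks 16373 and 876) and rla-0 (54.3). Respiratory chain and ATP synthase genes had a member at 13 of 52 (25%) and an optimal peak at 15, and either at 27, with 6 having a member within 250 bp. Translation factor genes had a member at 8 of 40 (20%), among them ife-2 and eif-2A, and an optimal peak at 12. Within 250 bp 4 had a member.

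Other lists had many more optimal peaks than members. Except for the vacuolar ATPase genes, their share with a member was near or above the 6.66% of all genes. Chaperone genes had a member at 7 of 65 (10.8%, interval 4.44 to 20.9) and an optimal peak at 16. Spliceosome genes had a member at 3 of 44 (6.82%) and an optimal peak at 15. For the synMuv B and DREAM genes, which act in repression of cell cycle and germline genes, the counts were 1 (lin-36, 5.56%) and 6 of 18. No vacuolar ATPase gene of 21 had a member and 7 had an optimal peak, and the interval for members, up to 16.1%, takes in the share of all genes.

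**Figure D5:**
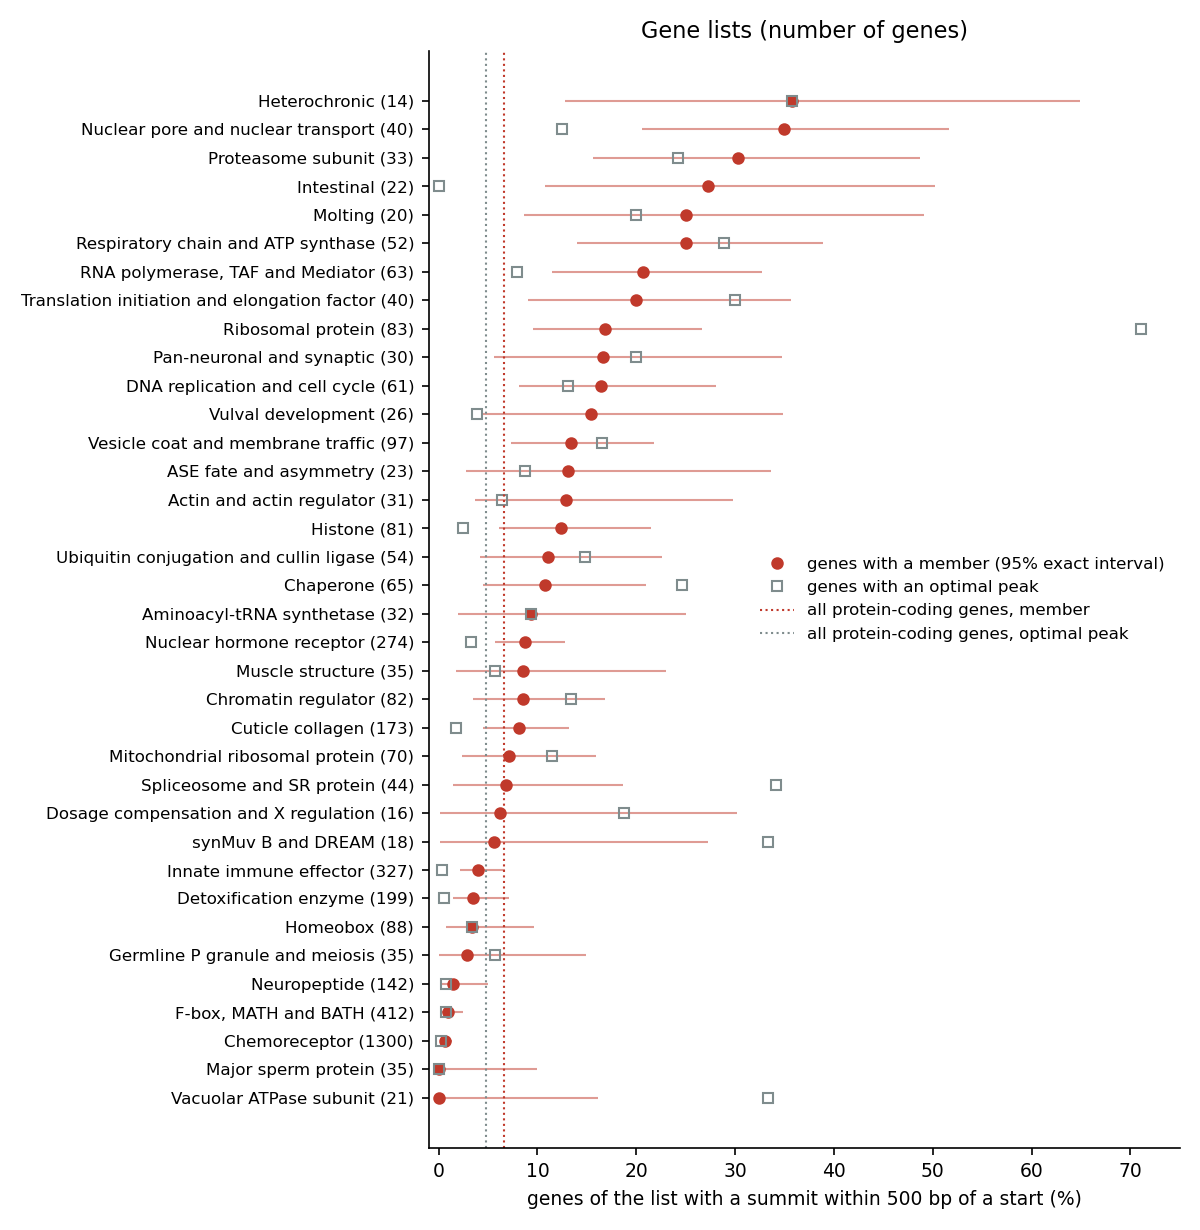
Share of genes of each list (%) with a summit within 500 bp of a start, for members (filled circles with 95% exact intervals) and optimal peaks (open squares); dotted lines are the shares of all protein-coding genes, 6.66% and 4.79%. Nuclear pore, proteasome, intestinal and Mediator-containing lists lie right of the member line, and chemoreceptor, F-box and neuropeptide genes lie left of it.

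Tissue lists were also represented. Of 22 intestinal genes, none had an optimal peak, beside 4.79% of all protein-coding genes. A member was at 6 of the 22 (27.3%), 3 of them within 250 bp. They included the microvillar actin gene act-5 (signal 56.9, ranks 9789 and 1258), the cysteine protease gene cpr-1 (51.4, ranks 2355 and 2278) and the peptide transporter gene pept-1 (43.9, ranks 2348 and 5018). Cuticle collagen genes had a member at 14 of 173 (8.09%, interval 4.49 to 13.2), 7 within 250 bp, and an optimal peak at 3. The first were col-85, col-142 and col-42. Histone genes had 10 (12.3%, interval 6.08 to 21.5) and 2 of 81, and 6 had a member by nearest start alone. The intervals of the collagen and histone lists take in the 6.66% of all genes. The neighbours his-67 and his-68 shared 1 member with a signal of 50.6 and all 3 elements, and near-identical histone copies can share reads.

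Nuclear hormone receptor genes had a member at 24 of 274 (8.76%) and an optimal peak at 9, led by nhr-68 (57.2) and nhr-97 (56.6). The interval for members, 5.69% to 12.8%, takes in the 6.66% of all genes. Heterochronic genes, which time larval development, had a member at 5 of 14, with a wide interval of 12.8% to 64.9%, and an optimal peak at 5 as well. Only 2 had a member within 250 bp. They included the NAB cofactor gene mab-10 (53.1) and the steroid receptor gene daf-12 (40.1, ranks 2071 and 17393). Molting genes had a member at 5 of 20 and an optimal peak at 4, and muscle structure genes had 3 and 2 of 35. Vulval genes had a member at 4 of 26, among them the Hox gene lin-39 (41.2), and an optimal peak at 1. The intervals for members at muscle genes (1.80% to 23.1%) and vulval genes (4.36% to 34.9%) take in 6.66% too.

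Several large gene families lay below the share of all genes. Chemoreceptor genes had a member at 9 of 1300 (0.692%) and F-box, MATH and BATH genes at 4 of 412 (0.971%), with an optimal peak at 3 in each. Neuropeptide genes had a member at 2 of 142 (1.41%) and an optimal peak at 1. For 3 further lists the interval took in 6.66%. Homeobox genes had a member at 3 of 88 (3.41%) and an optimal peak at 3. Innate immune effector genes had 13 of 327 (3.98%) against 1 with an optimal peak, and detoxification enzyme genes 7 of 199 (3.52%) against 1. No major sperm protein gene of 35 had a member or an optimal peak. Not every list of neuronal genes lay low. Pan-neuronal and synaptic genes had a member at 5 of 30 (16.7%) and an optimal peak at 6. The interval of that list for members, 5.64% to 34.7%, takes in the 6.66% of all genes, and 3 had a member within 250 bp.

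LSY-2 is known for the ASE pathway. Of 23 genes of ASE fate and asymmetry, 3 had a member (13.04%, interval 2.78 to 33.6), beside 6.66% of all genes, and 2 had an optimal peak. Within 250 bp 1 had a member. The 3 were at sox-2 (signal 41.6, ranks 3155 and 11214), lsy-12 (37.1, ranks 5206 and 7059) and lsy-13 (37.04, ranks 2811 and 15892). The genes lsy-12 and lsy-13 encode parts of a histone acetyltransferase complex. No member lay at a start of lim-6, die-1, cog-1, che-1, lsy-6 or lsy-2 itself, nor of unc-119, the gene of the strain's marker mutation. The nearest was inside die-1, at rank 4429 with a signal of 35.6. For lim-6 it was 8.02 kb from the gene, for lsy-6 39.4 kb and for lsy-2 75.5 kb.

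Noncoding genes were counted within 200 bp of a summit. Of all 26917 noncoding genes and pseudogenes, 2.72% had a member and 1.81% an optimal peak. Most of them are piRNA genes, of which 42 of 15363 had a member. There were more members than optimal peaks, so their gene counts are not directly comparable. Counted by region the order turned, with 16.04% of members and 23.03% of optimal peaks near a noncoding gene or pseudogene. For the class ncRNA the region shares were 12.6% and 17.7%, for snoRNA genes 1.43% and 2.24%, and for snRNA genes 0.304% and 1.15%. The region shares of lincRNA (0.851% and 0.704%), piRNA (0.972% and 0.832%) and tRNA genes were larger for members. These shares were not tested. Of 612 tRNA genes, 72 had a member (11.8%) and 38 an optimal peak (6.21%), while these genes took near-equal shares of members (2.13%) and of optimal peaks (2.05%). Of 346 snoRNA genes, 47 had a member (13.6%) and 37 an optimal peak (10.7%). Of 194 lincRNA genes the counts were 25 (12.9%) and 10. Of 129 snRNA genes, 10 had a member (7.75%) and 12 an optimal peak (9.30%). Of 261 miRNA genes, 11 had a member (4.21%) and 7 an optimal peak, the members led by cel-mir-354 (signal 53.9, ranks 6443 and 1653), cel-mir-230 (46.8) and cel-mir-8209 (43.6). No rRNA gene of 20 had a member. Many small RNA genes lie inside or beside protein-coding genes, so a member can count for both.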

How the data were processed

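The deposited files used were narrowPeak lists without headers. Per the deposited listings, the candidate lists came from immunoprecipitation and control alignments, of each replicate and of both pooled, and the optimal list from thresholding by the irreproducible discovery rate. For the aligner, the caller and that threshold: not given in the sources used here. The signal column and the -log10 q column are the authors' own, as deposited. Signal scales are separate per list, and -log10 q had a ceiling of 3.53 in the pooled list, reached by 132 members. No read numbers were given, so depth is unknown and intervals (exact, Clopper-Pearson, 95%) cover the counting of regions only.

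Coordinates are 1-based on ce11, with genes from Ensembl release 115 and sequence from RefSeq, both on WBcel235. The optimal list was identical to pooled ranks 1 to 1563, members came from ranks 1564 to 5000, and summit windows spanned 101 bp. Replicate matches overlapped by at least 1 bp, taking the nearest summit. Each summit was assigned in order to a start within 500 bp, coding exon, other exon, intron, noncoding gene or pseudogene, and intergenic sequence. The noncoding class of this order left out piRNA genes. Tests were two-sided Fisher's exact tests (scipy 1.17.1) with Benjamini-Hochberg adjustment, and matching and tests were checked on simulated data. Named genes were the 25 strongest at starts, the 10 best by worse replicate rank, up to 3 per gene list of 36 lists and per noncoding class, and 7 fixed genes, apart from those said to be picked later. The members and lists were chosen with earlier results of these data known. Sequences that ran into annotated untranslated regions, at hst-2, unc-16, ftt-2 and pmp-2, are not shown.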

Additional observations from a re-analysis of the deposited data

How the results depend on the processing

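The count of 3291 members stayed within 1.5 times under 50% overlap of the shorter region (3101, or 90.2% of the ranks), summits within 100 bp (2550, 74.2%), one-to-one matching (3002, 87.3%) and the ce10 lists (3289, 95.7%). It was 1320 (38.4%) with the 5000 strongest of each replicate. With 1 replicate left out the count was 3356 to 3372 and the share 97.6% to 98.1%.

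The share of members at starts was 24.7% with a window of 250 bp, 53.0% with 1000 bp, 39.5% for a run of ranks as long as the optimal list and 33.3% for ranks down to 10000. It stayed below the optimal share, past the threshold, under all 10 alternatives run for that comparison. With the 5000 strongest of each replicate, the intergenic difference from the optimal list lost its call and that for autosome middles gained one (4.86 percentage points, adjusted p 0.0229). Against candidates missing in a replicate, the difference of 6.75 percentage points at starts ranged from -2.97 without replicate 2 to 18.5 without replicate 1, where it passed the threshold. It also passed for ranks down to 10000, with 3.32 percentage points. There the ranks beyond 5000 supplied 1350 of the 1496 candidates missing in a replicate, but only 3650 of the 6941 members. Of all candidates at those lower ranks 29.98% lay at starts, close to the 29.95% of the 1496. This difference thus mixes ranks with presence in both replicates, and the lower ranks were not tested alone.

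With 50% overlap, 3 differences from those candidates gained a call, in percentage points: coding exons (-4.58, adjusted p 0.0128), GAGAGA (5.97, 0.0189) and proximity to an optimal summit (-4.16, 0.0236). Others turned in sign. Introns went from 0.159 to -1.70 with 50% overlap, -2.37 with the 5000 strongest and -5.26 for the run as long as the optimal list, and ranged from -0.156 to 0.407 with 1 replicate left out. Intergenic went from -3.47 to 2.37 with 50% overlap and 3.22 with the 5000 strongest. CGTCTC went from -1.92 to 0.642 with 50% overlap, 5.11 with the 5000 strongest, and -5.69 to 1.19 with 1 replicate left out. The 5000 strongest also gave 1.99 for autosome middles and 6.93 for proximity to an optimal summit, opposite in sign to the -4.16 above. That setting splits by replicate rank, which pooled signal shares. Coding exons ranged from -8.06 without replicate 1 to 3.86 without replicate 2. The causes were not tested.

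Genes with a member numbered 888 within 250 bp and 1144 by nearest start alone, and 19 and 6 of the 36 list counts moved by over 1.5 times. Unknown depth limits all of these.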
